A study of Mus musculus with 24 samples.

Results

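The 10 neuronal immediate early genes Fos, Fosb, Junb, Egr1, Egr2, Nr4a1, Arc, Npas4, Dusp1 and Ier2 were chosen by name from a table of 54532 genes, and each name matched 1 row. RNA from a brain hemisphere was sequenced in 24 male wild-type C57Bl6 mice, with 6 mice in each of 4 groups. An osmotic minipump ran for 2 weeks. It held either saline, called vehicle, or angiotensin II, a hormone that raises blood pressure, at a dose of 0.7 mg/kg/day. The vehicle and angiotensin II groups received no cells, while the vehicle + AEC and angiotensin II + AEC groups were also injected with amnion epithelial cells (AECs), which are human cells of the placental membrane. Every mouse carried a minipump, so no group was free of surgery. The comparisons ask whether angiotensin II changed the brain transcriptome and whether AECs altered that response.

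Immediate early genes are transcribed within minutes of a stimulus, without waiting for new protein to be made. In neurons, calcium entry and growth factor signals act through kinases on factors already bound to DNA, chiefly CREB, which binds the cAMP response element (CRE), and SRF, which binds the CArG box. The mRNAs are short-lived, so their level at a given moment reflects recent activity, and they are widely used as markers of active neurons.

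Levels were deposited as FPKM, a count of fragments scaled to the length of the gene and to the size of the library. The scaling is meant for comparison between genes and between mice, but the FPKM totals given below still differed between libraries. Total fragments recovered from the FPKM steps were 16536449 to 25308700 per mouse, and the members were covered by 33 to 8127 fragments in a mouse. All 10 members were among the 27286 genes tested, those above 0 in at least 6 of the 24 mice. In 6 libraries (vehicle replicates 5 and 6, angiotensin II replicate 5, vehicle + AEC replicate 6, and angiotensin II + AEC replicates 5 and 6) the FPKM values summed to 338334 to 348597, and in the other 18 to 277116 to 298301. Mitochondrial genes took 6.17% to 6.85% of the recovered fragments in the first set and 4.79% to 5.75% in the second. Neuron markers summed to 766 to 870 FPKM over the 24 mice, and all 7 of them were above 0 in every mouse. The labels do not say how these sets of libraries arose, so comparisons are also given within the larger set. The 6 libraries hold 1 or 2 mice of a group, too few to compare the groups within that set. Because whole tissue was measured, fewer active neurons and less RNA per neuron cannot be told apart.

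Promoter sequences are shown because the members moved together between mice, as described later, and because promoters hold the elements named above. RefSeq promoter windows (GRCm38.p6) were found for 7 members, Fos, Fosb, Junb, Egr2, Nr4a1, Npas4 and Dusp1, with 11 start sites in all. Egr1, Arc and Ier2 had no entry. The 250 bases before each start site were searched on both strands for the CRE (TGACGTCA), its core TGACG, the AP-1 site (TGANTCA), the EGR site (GCGNGGGCG), the TATA box (TATAAA) and the CArG box. A full CRE contains the core on both strands, so the CRE and core counts overlap. In the following 4 windows, written 5′ to 3′ on the strand of the gene, capitals mark the matches to these motifs.
Fos, chr12:85473640-85473889, plus strand: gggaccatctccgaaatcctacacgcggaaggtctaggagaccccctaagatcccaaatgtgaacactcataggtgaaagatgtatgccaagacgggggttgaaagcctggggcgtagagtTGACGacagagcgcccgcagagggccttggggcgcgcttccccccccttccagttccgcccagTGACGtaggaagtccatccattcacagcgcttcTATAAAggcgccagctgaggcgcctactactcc
Junb, chr8:84978749-84978998, minus strand: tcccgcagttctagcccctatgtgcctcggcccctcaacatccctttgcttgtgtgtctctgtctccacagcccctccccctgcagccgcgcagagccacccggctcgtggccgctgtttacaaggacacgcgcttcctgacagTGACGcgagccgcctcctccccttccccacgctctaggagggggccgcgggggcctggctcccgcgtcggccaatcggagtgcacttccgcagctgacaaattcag
Npas4, chr19:4989972-4990221, minus strand: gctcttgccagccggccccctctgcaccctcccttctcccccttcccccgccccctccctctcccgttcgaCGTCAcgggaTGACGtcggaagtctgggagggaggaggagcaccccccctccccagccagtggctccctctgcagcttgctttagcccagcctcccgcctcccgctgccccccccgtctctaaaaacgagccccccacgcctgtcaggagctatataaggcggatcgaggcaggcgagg
Nr4a1, chr15:101266596-101266845, plus strand: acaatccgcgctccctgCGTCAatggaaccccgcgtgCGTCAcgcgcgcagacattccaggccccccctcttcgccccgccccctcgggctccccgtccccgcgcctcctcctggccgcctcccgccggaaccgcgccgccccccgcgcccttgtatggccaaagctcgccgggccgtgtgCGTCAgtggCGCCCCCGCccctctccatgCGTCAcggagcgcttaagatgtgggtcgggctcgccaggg
The Nr4a1 window ends at a start site that lies 12577 bases inside the gene as the deposited table draws it.

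The CRE core was present in at least 1 window of each of the 7 matched members. It was present in the single window of 6 of them, and Egr2 had 5 windows. Of all 32851 promoter windows, 17.8% held the core. GC content was 54% to 74.4% in the members' windows and had a median of 52.4% in all windows, and of the 14726 windows with at least 54% GC, 25.4% held the core. The full CRE was found in Dusp1, from 143 to 136 bases before the start, and in 1.55% of all windows. The CArG box was found in Egr2 and in 1.47% of all windows. The EGR site was found in Fosb and Nr4a1 and in 4.7% of all windows, and the TATA box in Fos and in 12.4% of them. No member's window held the AP-1 site, which 6.75% of all windows did. A match describes only the letters and does not show that a factor binds there.

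**Figure D1:**
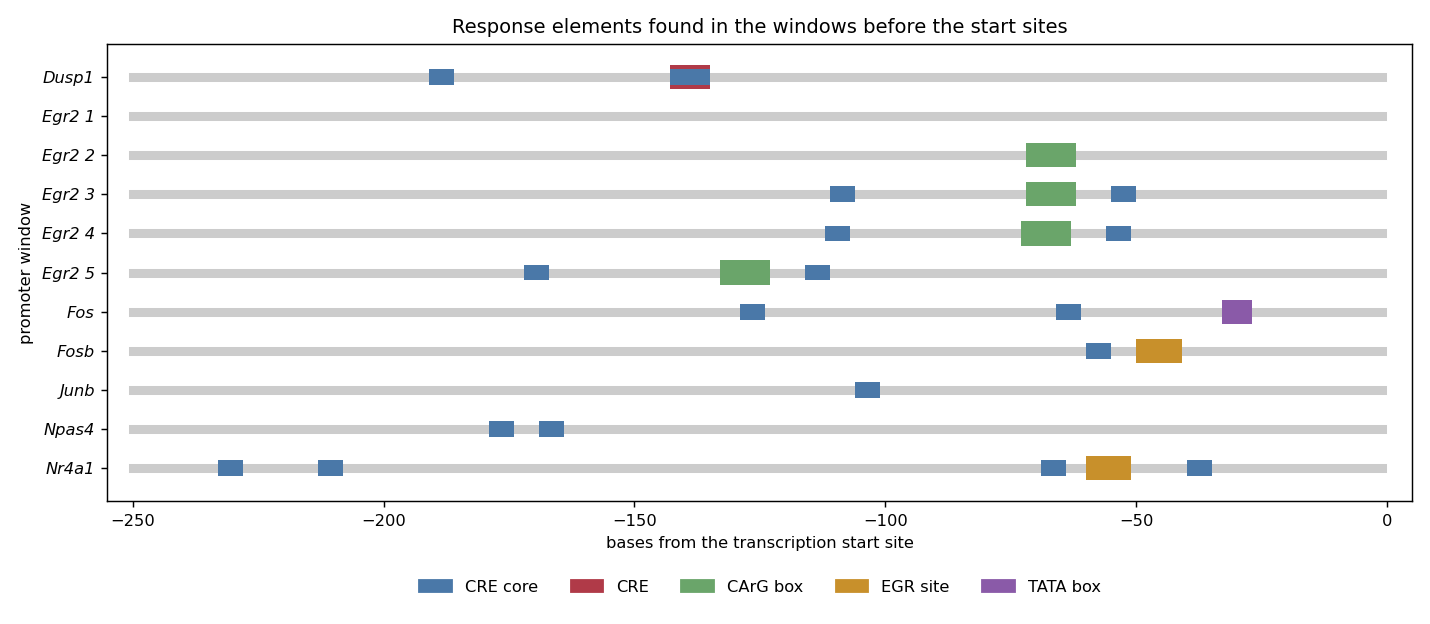
Motif matches in the 250 bases before each of 11 start sites of 7 members (horizontal axis, bases from the start site; 1 grey line per window, coloured boxes for matches on either strand; the 5 Egr2 windows are numbered by distance from the gene start of the table). The CRE core appears in at least 1 window of all 7 genes, and the full CRE only in Dusp1.

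Fos, Fosb and Junb encode subunits of AP-1, the dimeric transcription factor formed by Fos and Jun proteins. Fos (ENSMUSG00000021250, GRCm38 chr12:85473890-85477273) ranged from 4.09 to 14.5 FPKM in vehicle-infused mice, with a median of 7.65. In angiotensin II-infused mice the range was 4.11 to 11.7 FPKM with a median of 7.93. With vehicle + AEC it was 8.68 to 11.98 FPKM with a median of 9.31, and with angiotensin II + AEC 3.81 to 11.3 FPKM with a median of 9.97. The vehicle group thus held both low and high mice, whereas all 6 mice given vehicle + AEC lay in between, and all 4 ranges overlapped. Mean Fos levels were 8.49 ± 4.55, 7.57 ± 3.02, 9.67 ± 1.23 and 8.82 ± 2.75 FPKM (SD, n = 6) in the same order of groups. The log2 difference was -0.09 for angiotensin II against vehicle (95% interval -0.75 to 0.58) and 0.24 for angiotensin II + AEC against angiotensin II (-0.42 to 0.91). For vehicle + AEC against vehicle it was 0.36 (-0.31 to 1.02), with 6 of 6 mice above the vehicle mean on the log2 scale.

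Junb (ENSMUSG00000052837, chr8:84974484-84978718) had a median of 19.9 FPKM with vehicle (12.7 to 39.5) and 19.7 with angiotensin II (12.3 to 26.2). The median was 23.3 FPKM with vehicle + AEC (19.4 to 32.1) and 25.9 with angiotensin II + AEC (11.7 to 32.3). The highest Junb values were those of vehicle replicates 5 and 6, and the groups overlapped. Junb differed by -0.16 on the log2 scale between angiotensin II and vehicle (95% interval -0.72 to 0.41) and by 0.31 between angiotensin II + AEC and angiotensin II (-0.26 to 0.87). The row of Junb overlaps Prdx2, an antioxidant enzyme gene on the opposite strand with a mean of 74.8 FPKM, and the use of strand in counting is not given in the sources used here, so the level of Junb is uncertain. No other member overlaps another gene of the table.

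Fosb (ENSMUSG00000003545, chr7:19302696-19310051) was low in all groups, with means of 2.28 ± 0.813 FPKM with vehicle, 1.98 ± 0.301 with angiotensin II, 2.11 ± 0.202 with vehicle + AEC and 2.18 ± 0.292 with angiotensin II + AEC (SD, n = 6). Lowest, median and highest values were 1.54, 1.98 and 3.69 FPKM with vehicle and 1.74, 1.88 and 2.52 with angiotensin II. They were 1.85, 2.07 and 2.47 FPKM with vehicle + AEC and 1.70, 2.21 and 2.54 with angiotensin II + AEC. Fosb was the member with the narrowest spread and its groups overlapped. It differed by -0.14 on the log2 scale between angiotensin II and vehicle (95% interval -0.47 to 0.18) and by 0.13 between angiotensin II + AEC and angiotensin II (-0.19 to 0.46).

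Egr1 and Egr2 encode zinc finger transcription factors that bind GC-rich sites, and Nr4a1 encodes an orphan nuclear receptor. Egr1 (ENSMUSG00000038418) had the highest mean of the members, 51.4 FPKM over the 24 mice. Its medians were 52.8 FPKM with vehicle (34.9 to 71.1), 47.6 with angiotensin II (36.7 to 66.4), 52.9 with vehicle + AEC (44.2 to 62.3) and 53.7 with angiotensin II + AEC (29.7 to 64.8). The 4 medians thus lay close together against ranges that overlapped throughout. The log2 difference of Egr1 was -0.09 for angiotensin II against vehicle (95% interval -0.47 to 0.28), 0.07 for angiotensin II + AEC against angiotensin II (-0.30 to 0.45) and 0.02 for vehicle + AEC against vehicle (-0.35 to 0.40).

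Egr2 (ENSMUSG00000037868, chr10:67535475-67542188) was the member of lowest expression, with a mean of 1.34 FPKM over the 24 mice. Lowest, median and highest values were 0.690, 1.26 and 1.89 FPKM with vehicle and 0.572, 0.997 and 1.90 with angiotensin II. They were 1.29, 1.48 and 1.87 FPKM with vehicle + AEC and 0.475, 1.50 and 2.21 with angiotensin II + AEC. The vehicle, angiotensin II and angiotensin II + AEC groups each reached well below 1 FPKM, the last with the lowest value of all. The vehicle + AEC group did not, and the groups overlapped. Egr2 differed by 0.36 on the log2 scale between vehicle + AEC and vehicle (95% interval -0.29 to 1.01), with 6 of 6 mice above the vehicle mean, and by 0.32 between angiotensin II + AEC and angiotensin II (-0.33 to 0.97). Nr4a1 (ENSMUSG00000023034, chr15:101254269-101274795) had medians of 21.7 FPKM with vehicle (13.4 to 31.7), 20.1 with angiotensin II (11.3 to 31.1), 25.1 with vehicle + AEC (19.2 to 26.7) and 26.5 with angiotensin II + AEC (10.8 to 28.9). It differed by -0.12 on the log2 scale between angiotensin II and vehicle (95% interval -0.66 to 0.42) and by 0.26 between angiotensin II + AEC and angiotensin II (-0.28 to 0.79).

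Arc encodes an activity-regulated protein of the dendrite that takes part in the removal of AMPA receptors from the synapse, and Npas4 encodes a transcription factor that is induced in neurons by calcium entry. Arc (ENSMUSG00000022602, chr15:74669083-74672570) varied most of the members between mice, from 14.9 to 81.5 FPKM, a 5.45-fold range. It had a median of 40.1 FPKM with vehicle (17.0 to 81.5) and 38.7 with angiotensin II (17.9 to 57.3). With vehicle + AEC the median was 48.6 FPKM (43.4 to 60.1), and with angiotensin II + AEC 62.8 FPKM (14.9 to 73.7). The highest single value was that of a vehicle mouse and the lowest that of an angiotensin II + AEC mouse, so the groups overlapped. Mean Arc levels were 43.9 ± 25.4, 37.2 ± 14.3, 50.1 ± 6.60 and 52.9 ± 22.2 FPKM (SD, n = 6) in the same order. The log2 difference of 0.44 between angiotensin II + AEC and angiotensin II was the largest of the 10 members (SE 0.382, 95% interval -0.35 to 1.23), with 5 of 6 mice above the angiotensin II mean and an adjusted p of 1 in limma. Npas4 (ENSMUSG00000045903, chr19:4984355-4989971) had medians of 4.07 FPKM with vehicle (2.78 to 8.81), 4.10 with angiotensin II (2.81 to 5.61), 3.82 with vehicle + AEC (2.82 to 5.67) and 4.86 with angiotensin II + AEC (3.48 to 5.90). Its log2 difference was -0.13 for angiotensin II against vehicle (95% interval -0.65 to 0.38) and 0.21 for angiotensin II + AEC against angiotensin II (-0.31 to 0.73).

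Dusp1 encodes a phosphatase that switches off MAP kinases and so acts as a feedback inhibitor of the pathway that induces it, and Ier2 encodes a small nuclear protein that is induced by growth factors. Dusp1 (ENSMUSG00000024190, chr17:26505590-26508519) had medians of 10.6 FPKM with vehicle (7.92 to 16.5), 11.8 with angiotensin II (7.90 to 13.5), 12.8 with vehicle + AEC (10.5 to 16.5) and 13.4 with angiotensin II + AEC (6.17 to 15.7). It differed by 0.00 on the log2 scale between angiotensin II and vehicle (95% interval -0.44 to 0.44). Ier2 (ENSMUSG00000053560, chr8:84661331-84662852) had medians of 7.16 FPKM with vehicle (4.31 to 14.7), 7.06 with angiotensin II (4.82 to 8.54), 7.45 with vehicle + AEC (5.78 to 10.5) and 8.88 with angiotensin II + AEC (4.44 to 11.7). The 2 highest Ier2 values were those of vehicle replicates 5 and 6, which are both in the set of high total FPKM. Ier2 differed by -0.18 on the log2 scale between angiotensin II and vehicle (95% interval -0.73 to 0.37) and by 0.28 between angiotensin II + AEC and angiotensin II (-0.28 to 0.83).

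**Figure D2:**
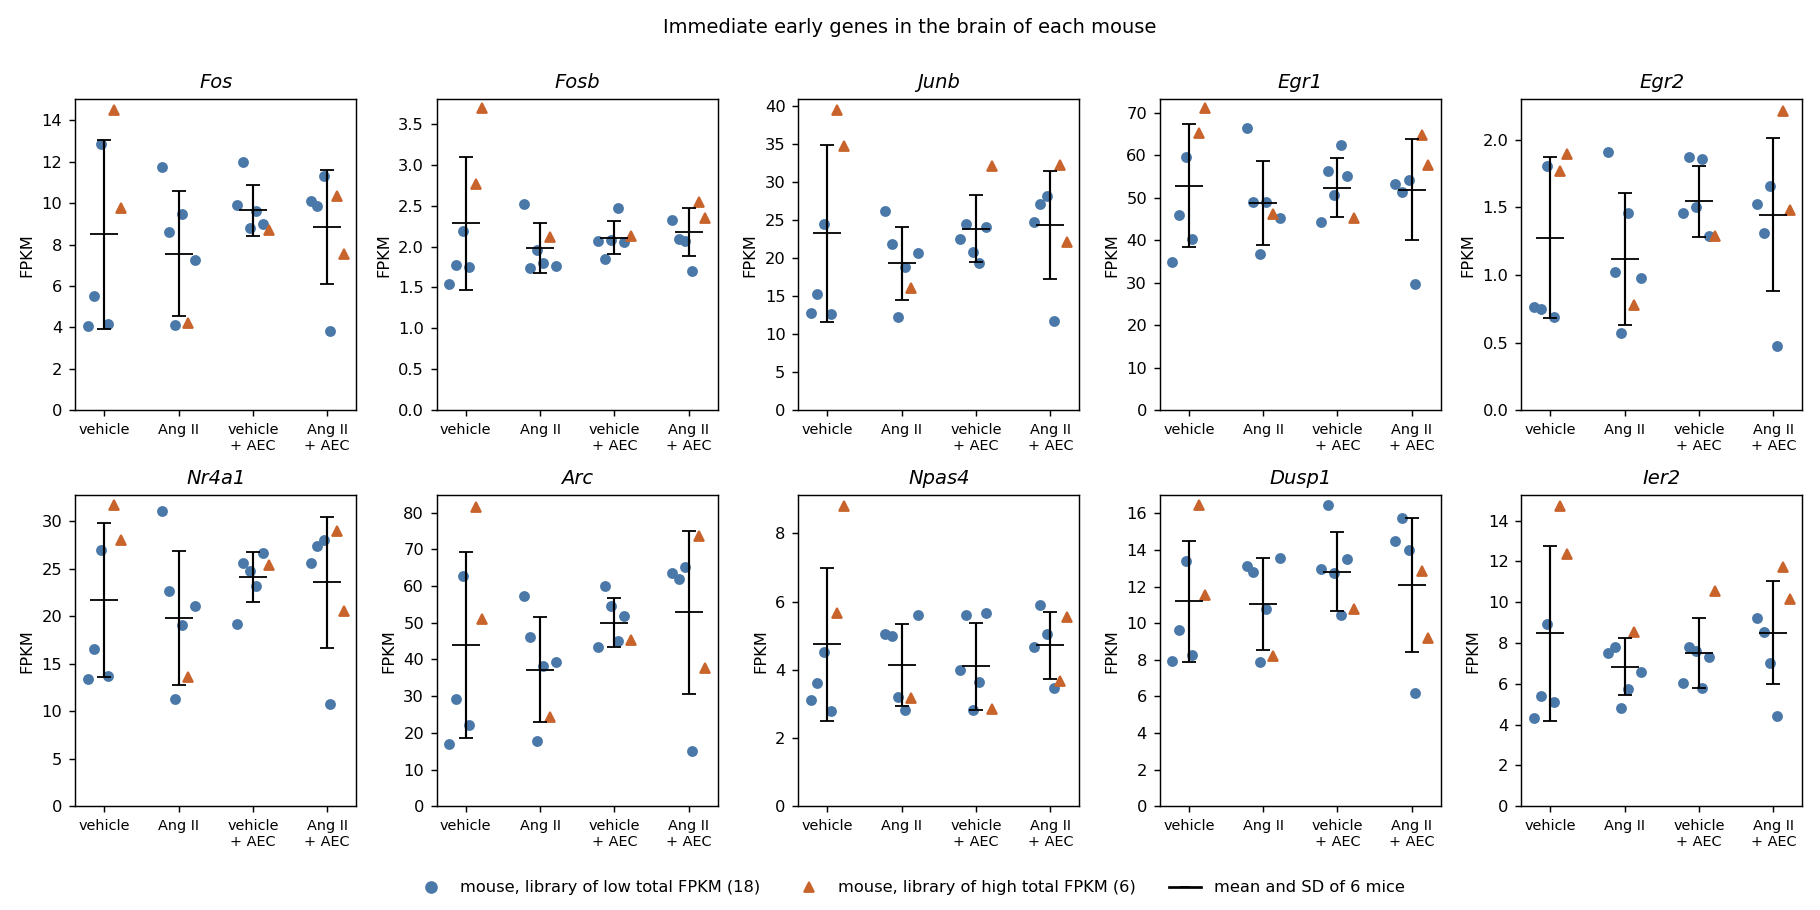
Level of each of the 10 genes in FPKM (vertical axes from 0) in the 6 mice of each group; blue circles are the 18 libraries of low total FPKM, orange triangles the 6 of high total FPKM, and black bars the mean and SD. The 4 groups overlap in every gene, and the vehicle + AEC mice lie closest together in Fos, Egr2 and Arc.

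None of the 10 genes passed a threshold for angiotensin II against vehicle, which asks whether the pressor hormone alone altered them. In limma across all genes, 0 of 10 members had an adjusted p under 0.05 (0% of all genes tested) and 0 of 10 an unadjusted p under 0.05, where 2.21% of all genes did. Voom on the recovered fragments also gave 0 of 10 at an unadjusted p under 0.05. All 10 log2 differences were at or below 0, from -0.18 (Ier2) to 0.00 (Dusp1), with a median of -0.13, while the median over all genes was 0.02 and 55.4% of genes were positive. Unadjusted p ranged from 0.377 (Fosb) to 0.987 (Dusp1), and the lowest adjusted p was 0.994. The shared sign did not hold within the 18 libraries of low total FPKM, with 4 vehicle and 5 angiotensin II mice, where all 10 differences were positive. They ranged from 0.10 (Fosb) to 0.39 (Fos), with a median of 0.25 and unadjusted p of 0.252 to 0.518. With the set as a term in the fit all 10 stayed negative, from -0.11 to -0.01. Leaving out vehicle replicate 5, vehicle replicate 6, vehicle replicate 3, angiotensin II replicate 3 or angiotensin II replicate 5 made 6, 4, 3, 5 and 2 of the 10 positive, and voom made 1 positive. Since the members move together between mice, the sign of 10 genes is not 10 separate observations.

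Adding AECs to angiotensin II gave 0 of 10 members at an adjusted p under 0.05 (0% of all genes) and 0 of 10 at an unadjusted p under 0.05 (2.54% of all genes), and voom also gave 0. All 10 log2 differences from the angiotensin II group were positive, from 0.07 (Egr1) to 0.44 (Arc), with a median of 0.25 against -0.02 over all genes. Unadjusted p was 0.263 to 0.698. This comparison and the previous one share the 6 mice given angiotensin II alone, so a low value of these mice enters both with opposite sign. One library decided this count. Without angiotensin II + AEC replicate 4, Arc (log2 difference 0.77, 95% interval 0.07 to 1.46, unadjusted p = 0.0326) and Egr2 (0.59, 0.01 to 1.17, unadjusted p = 0.0482) passed the unadjusted threshold in limma, and the adjusted p of both was 0.954. That replicate held the lowest Arc and Egr2 of the 24 mice, so leaving it out raises both differences. Arc and Egr2 also moved together (r = 0.90 over the 24 mice), so they are not 2 separate observations. With 1 mouse left out in turn, 606 to 882 of all genes tested passed the unadjusted threshold in this comparison. In the 18 libraries of low total FPKM, 9 differences were positive, from 0.04 (Egr2) to 0.25 (Arc), Egr1 was at -0.08, and the median was 0.08.

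AECs in vehicle-infused mice gave 0 of 10 members at an adjusted p under 0.05 (0% of all genes) and 0 of 10 at an unadjusted p under 0.05 (2.41% of all genes), and voom also gave 0. Of the log2 differences, 7 were positive, up to 0.40 (Arc), and 3 negative, down to -0.15 (Npas4), with unadjusted p of 0.258 to 0.899. All 10 were positive in the 18 libraries of low total FPKM, from 0.21 (Fosb) to 0.81 (Arc), with unadjusted p of 0.0552 (Egr2) to 0.251 (Npas4). Comparing angiotensin II + AEC with vehicle + AEC, 0 of 10 members passed either threshold (0% of all genes adjusted, 2.66% unadjusted), voom included, with log2 differences of -0.20 (Fos) to 0.23 (Npas4) and unadjusted p of 0.370 to 0.940. Of these 10 differences 7 were negative over all mice and 8 in the 18 libraries. The interaction, the response to angiotensin II with AECs minus that without, also gave 0 of 10 at either threshold (0% of all genes adjusted, 2.54% unadjusted), voom included. It ranged from -0.13 (Dusp1) to 0.36 (Npas4), and the adjusted p from 0.931 to 0.989. Over all mice 7 of the 10 interaction values were positive, whereas within the 18 libraries all 10 were negative, from -0.68 (Egr2) to -0.11 (Npas4). The intervals leave room for sizeable change: for Arc the interval of angiotensin II against vehicle reached from 0.531-fold to 1.59-fold on the FPKM + 0.1 scale, and for Fosb, the most precise, from 0.723-fold to 1.14-fold.

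**Figure D3:**
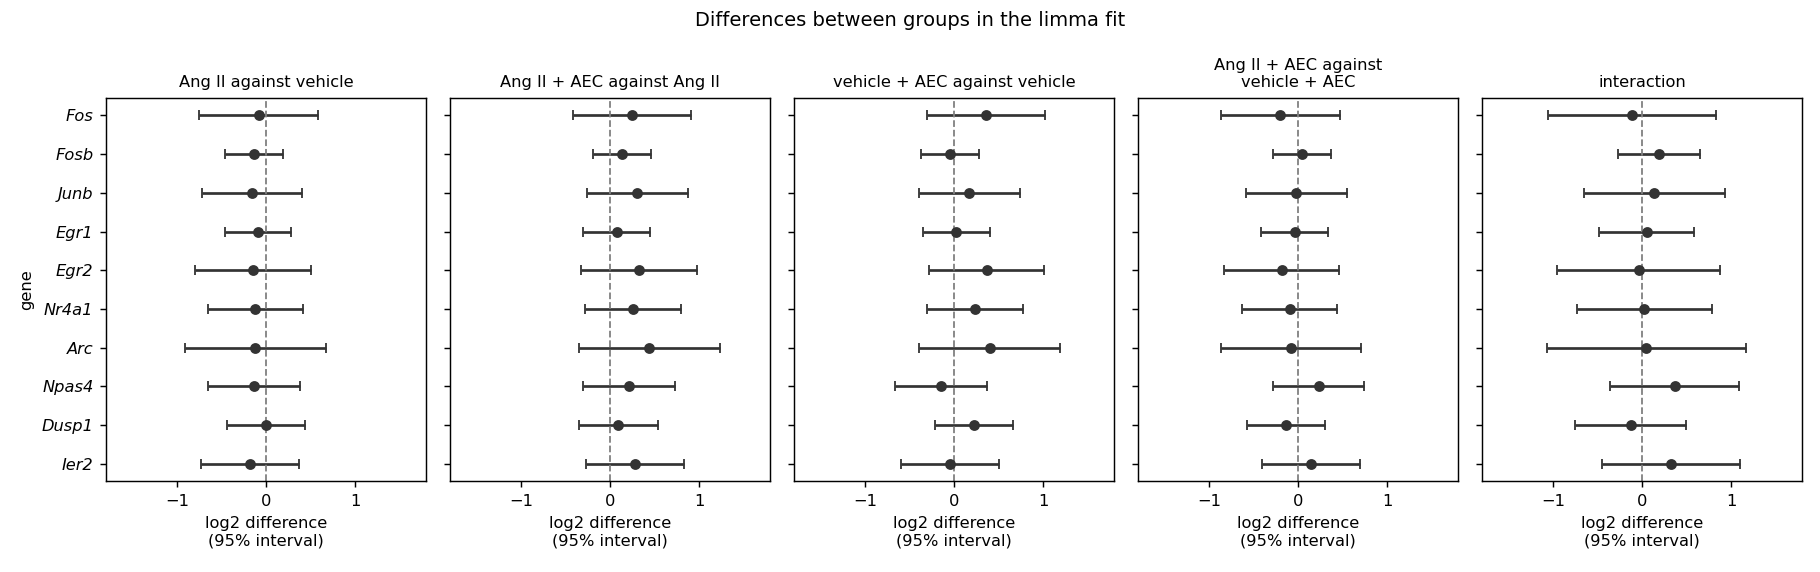
Log2 difference of each gene in 4 comparisons of groups and in the interaction (horizontal axes; points are limma estimates over 6 mice a group, bars 95% intervals, dashed lines no difference). Every interval includes 0, with all 10 points at or left of 0 for angiotensin II against vehicle and all 10 right of 0 for angiotensin II + AEC against angiotensin II. Within the 18 libraries of low total FPKM, which are not plotted alone, the first 10 all lie right of 0 and Egr1 of the second lies left of it.

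Ordered by mean log2 level, the angiotensin II group was the lowest of the 4 groups for 9 of the 10 genes, and vehicle + AEC for Npas4. The vehicle + AEC group was the highest for 7 genes, angiotensin II + AEC for Npas4 and Ier2, and vehicle for Fosb. No 2 neighbours in any of these orders differed beyond their spread (two-sided exact permutation tests of 6 against 6 mice, p from 0.353 to 0.985). The order was another in the 18 libraries of low total FPKM: vehicle was the lowest group for all 10 genes, angiotensin II for none, and vehicle + AEC the highest for 8. Over all 60 pairs of groups, the lowest exact p was 0.0628, where the smallest possible is 0.00216, and in none did the groups fail to overlap.

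The mice of a group differed widely. In vehicle replicates 1, 2 and 4, angiotensin II replicate 3 and angiotensin II + AEC replicate 4, all 10 genes were below their median over the 24 mice. In the last of these, the median difference from the gene medians was -0.98 on the log2 scale, 7 genes were at their lowest of all mice and 9 were among their 3 lowest. In vehicle replicate 1 and vehicle replicate 4 all 10 genes were among the 6 lowest values, with median differences of -0.79 and -0.71. At the other end, vehicle replicate 5 was among the 6 highest mice for 9 genes, angiotensin II + AEC replicate 5 for 8 and vehicle replicate 6 for 7, and all 3 are libraries of high total FPKM. Angiotensin II replicate 5, also a library of high total FPKM, was instead among the 6 lowest mice for 7 genes, with a median difference of -0.55. No gene was below its median in vehicle replicates 3 and 5 and angiotensin II + AEC replicate 1. By the rules used above, which differ for low and high mice, the vehicle group held 3 of the 5 low mice and 2 of the 3 high ones. The neutrophil markers summed to 46.6 FPKM in angiotensin II + AEC replicate 4, the highest of the 24 mice, against a median of 11.95. Over the 24 mice, Pearson's r of these markers with the members ran from -0.28 (Nr4a1) to -0.04 (Fosb). No member passed the permutation test after adjustment. Without the 2 mice farthest from the median of the markers, r ran from -0.12 (Npas4) to 0.14 (Dusp1). The part of these markers in the low values of that replicate was not tested.

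**Figure D4:**
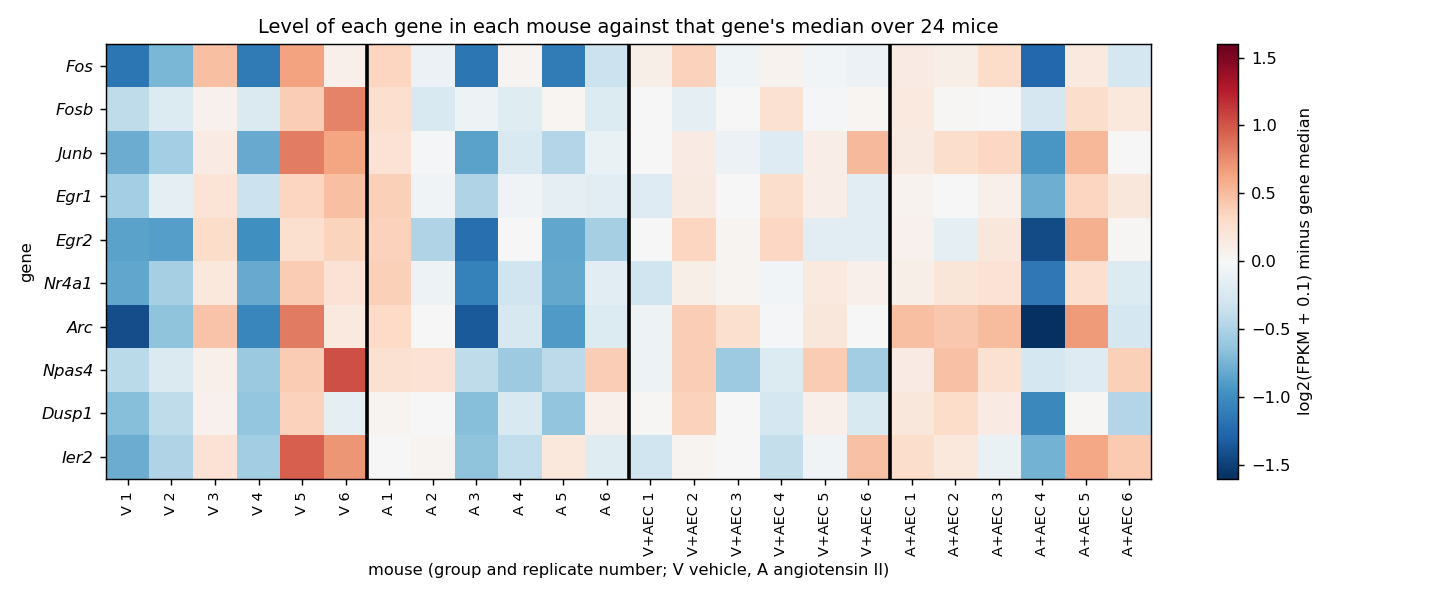
Level of each gene (rows) in each mouse (columns, ordered by group and replicate) as log2(FPKM + 0.1) minus the gene's median over 24 mice; blue is below and red above the median. Whole columns share a colour, as in vehicle replicate 1 and angiotensin II + AEC replicate 4, where all 10 genes lie below their medians.

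Within groups, each member varied more between mice than the median gene did. The pooled SD of log2 levels was 0.70 for Arc, 0.59 for Fos, 0.57 for Egr2, 0.50 for Junb, 0.49 for Ier2, 0.48 for Nr4a1, 0.45 for Npas4, 0.39 for Dusp1, 0.33 for Egr1 and 0.27 for Fosb. The median over the 13649 genes with a mean of at least 1 FPKM was 0.24, and 96.0% of these genes had a smaller SD than Arc, 94.4% than Fos and 59.9% than Fosb. In 8 of the 10 members the spread was narrowest in the vehicle + AEC group, as it was for 17.8% of all such genes. In 8 members it was widest in the vehicle group. Over all such genes the median SD was also largest with vehicle (0.255). It was 0.187 with angiotensin II, 0.231 with vehicle + AEC and 0.248 with angiotensin II + AEC. As the members move together, 8 genes are not 8 separate observations. The SD of Fos was 0.80 on the log2 scale with vehicle and 0.17 with vehicle + AEC. These differences in spread are a description and were not tested.

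Some members followed the set of libraries. Ier2 was above the median of the 18 libraries of low total FPKM (6.81 FPKM) in 6 of 6 libraries of high total FPKM, whose median was 11.1 FPKM, a difference of 0.72 on the log2 scale within groups. Fosb was above it in 6 of 6 as well, with a difference of 0.30, and Junb in 5 of 6, with a difference of 0.45. Fos (0.02), Npas4 (0.01) and Dusp1 (-0.09) differed little, and the median over all genes was -0.07. Over the 24 mice Ier2 also followed the mitochondrial share (r = 0.56, rho = 0.31, permutation p = 0.00461, adjusted p = 0.0437, and r = 0.55 without the 2 farthest mice). That share is itself higher in the set of high total FPKM. Within the 18 libraries of low total FPKM the sign was the other way (r = -0.41, rho = -0.48, adjusted permutation p = 0.479). There r with this share was negative for every member, from -0.62 (Junb) to -0.36 (Npas4), and none passed after adjustment. The part of the set or of the share in the level of Ier2 was not tested. With the set as a term in the fit, or with the 18 libraries of low total FPKM alone, 0 of 10 members passed an unadjusted p of 0.05 in any of the 5 contrasts.

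The 10 genes rose and fell together from mouse to mouse. Within the 18 libraries of low total FPKM, Pearson's r of log2(FPKM + 0.1) was positive for 45 of 45 pairs of members, with a median of 0.84, and 43 pairs had an adjusted permutation p under 0.05 over the 45 pairs (43 by Spearman's rho). Within the 6 libraries of high total FPKM the median r was 0.81, also with 45 positive pairs, and 18 pairs passed an exact permutation test after adjustment. Over all 24 mice the median r was 0.75 and 44 pairs passed (43 by Spearman's rho), and 44 passed with the group means removed. Between members and the other genes of at least 1 FPKM, the median r over 24 mice was -0.03 and 7.27% of pairs exceeded 0.5, compared with 43 of the 45 pairs of members.

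By Pearson's r the closest pair was Nr4a1 and Arc, with r = 0.97 over the 18 libraries and r = 0.97 over all 24 mice. Over the 24 mice rho was 0.93 and the permutation p 1e-05, the smallest that 100000 permutations can give (adjusted p = 2.14e-05). Without the 2 mice farthest from the median of Nr4a1, r over the 24 mice was 0.95. Other pairs were as close. Junb and Arc also had r = 0.97 over the 18 libraries, with a rho of 0.95 against 0.93 for Nr4a1 and Arc. In the 6 libraries of high total FPKM, Junb and Nr4a1 were closest (r = 0.98). The least close over 24 mice was Fosb and Dusp1, with r = 0.35 (permutation p = 0.0939), and within the 18 libraries Fosb and Npas4, with r = 0.31 (permutation p = 0.214). Over 24 mice the median r with the other 9 members was 0.90 for Arc, 0.88 for Nr4a1 and Fos, 0.61 for Fosb and 0.53 for Npas4, so the last 2 followed the others least.

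Within single groups of 6 mice, values that were computed after the pooled ones had been seen, the median r of the 45 pairs was 0.93 with vehicle, 0.70 with angiotensin II and 0.89 with angiotensin II + AEC. It was 0.18 with vehicle + AEC, where 25 of 45 pairs were positive and the members spread least. Nr4a1 and Arc had r = 0.98 with vehicle (exact permutation p = 0.00556), 0.99 with angiotensin II (0.00139), 0.64 with vehicle + AEC (0.146) and 0.99 with angiotensin II + AEC (0.00417). Whether these correlations differ between the groups was not tested.

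**Figure D5:**
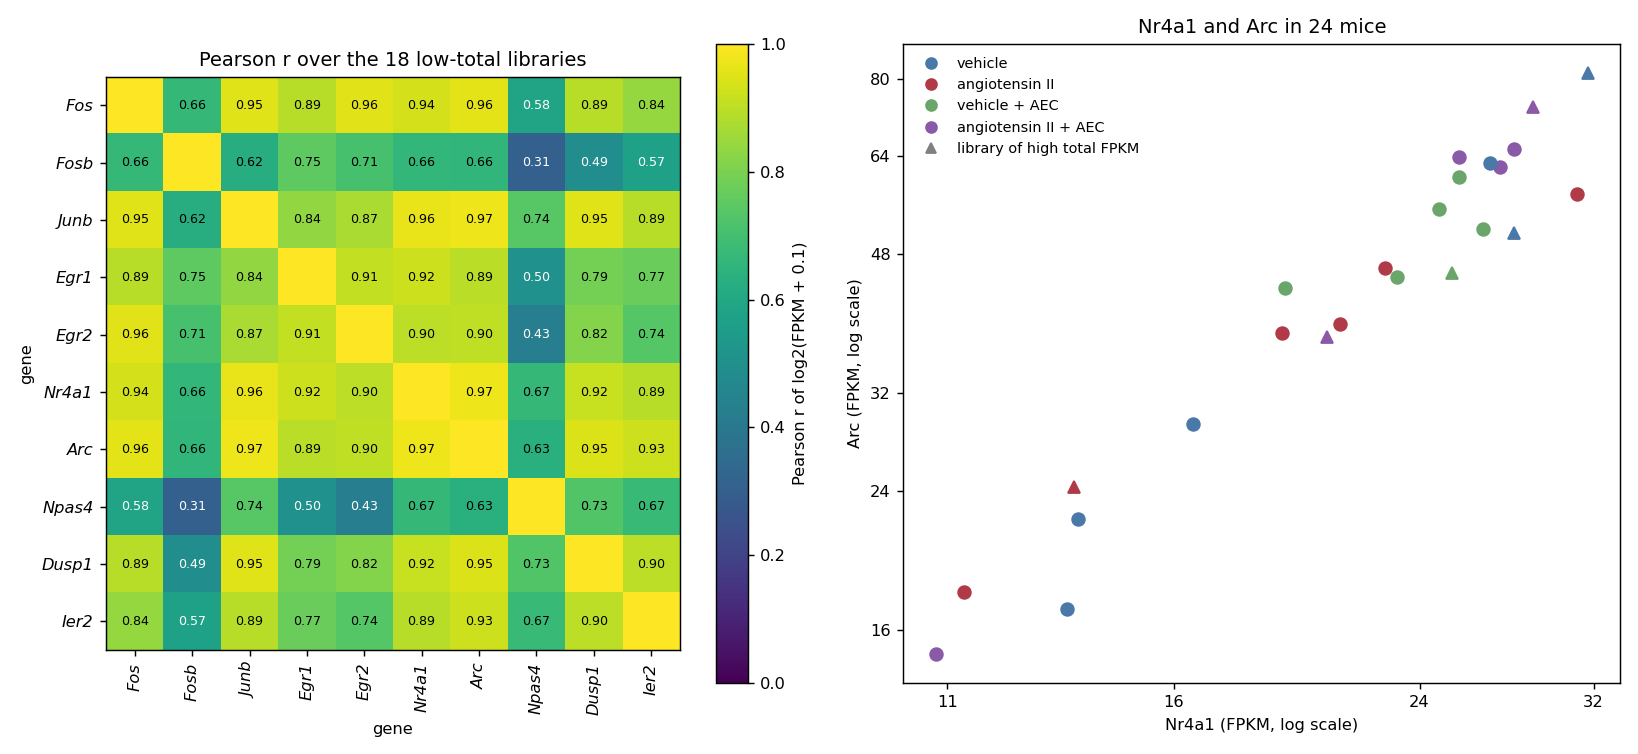
Left, Pearson's r between each pair of genes over the 18 libraries of low total FPKM (colour from 0 to 1, values in the cells); right, Nr4a1 against Arc in FPKM on log axes in all 24 mice, coloured by group, with triangles for libraries of high total FPKM. The pair of Nr4a1 and Arc and the pair of Junb and Arc are the brightest, both at 0.97. Ier2 and Arc reach 0.93, and Fosb and Npas4 are the least close pair at 0.31. On the right, the mice of all 4 groups fall along 1 line.

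Genes outside the list were ranked by the Pearson r of their log2 level with the mean of the 10 standardised members over the 24 mice, with group means removed, as a description. The 10 most alike were Ier5 (r = 0.91), 1700016P03Rik (0.91), Unc119b (0.87), Stk40 (0.86), Dnajb5 (0.86), Trib1 (0.86), Acrbp (0.85), Spata2l (0.85), Gpr3 (0.85) and Egr4 (0.83). Ier5, the pseudokinase gene Trib1 and Egr4, a relative of Egr1, are themselves in a list of 28 other rapid response genes. Ier5 ranged from 15.1 to 23.6 FPKM over the mice, a narrow range beside that of Arc. The points share libraries and library size.

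1700016P03Rik (chr11:75172560-75177633, plus strand) ranged from 3.50 to 9.20 FPKM, with a median of 7.05. It is a long RNA whose gene contains the miRNAs miR-212 and miR-132, placed here by their RefSeq coordinates on GRCm38.p6. The mature 3p forms, whose seed (bases 2 to 8, in capitals) is the same, are shown because they are the products of this transcript that can be named.
mmu-miR-212-3p, chr11:75173443-75173464: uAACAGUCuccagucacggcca
mmu-miR-132-3p, chr11:75173723-75173744: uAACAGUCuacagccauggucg
The libraries were made from poly-A RNA, so the values describe the host RNA and not the mature miRNAs.

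Related genes were taken from 3 lists. Of 26 other rapid response genes with a mean of at least 1 FPKM, 15 (57.7%) had an r over 0.5 with the members, and the median was 0.60. Of 15 delayed response genes, 1 did, Rgs2, which encodes a regulator of G protein signalling (r = 0.57), and the median was 0.03. Of 31 upstream regulators, 4 (12.9%) did, with a median of -0.20. They were the Egr corepressor gene Nab2 (0.77), Srf (0.65), the deacetylase gene Hdac5 (0.61) and the CREB coactivator gene Crtc2 (0.50). Over all 13639 genes other than the members, 468 (3.43%) did. Of these 468 genes, 15 were in the list of rapid response genes.

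Between the groups, few genes of these lists passed a threshold. Of 28 other rapid response genes tested, 0 passed an unadjusted p of 0.05 for angiotensin II against vehicle. Gadd45b, a growth arrest and DNA damage response gene, was 7.77 ± 0.926 FPKM with angiotensin II and 9.83 ± 1.59 with angiotensin II + AEC (SD, n = 6), a log2 difference of 0.33 (SE 0.154) with overlapping ranges, 6.48 to 9.04 against 8.19 to 12.1. Its unadjusted p was 0.0433 in limma and 0.0195 in the exact permutation test, and its adjusted p was 1. Its interaction was 0.46 (unadjusted p = 0.0452, adjusted p = 0.931 in limma). Sik1, a kinase that acts on CREB coactivators, was 2.63 ± 0.602 FPKM with vehicle and 3.54 ± 0.484 with vehicle + AEC (SD, n = 6), a log2 difference of 0.43 (unadjusted p = 0.0365, adjusted p = 0.995 in limma). Of the 16 delayed response genes and the 31 upstream regulators tested, 0 passed an unadjusted p of 0.05 in any of the 5 contrasts, and no gene of the 3 lists passed an adjusted p of 0.05. The share of 1 in 28 is near the 2.54% and 2.41% of all genes at the same threshold.

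Marker lists for cell types and brain regions, the recovered fragments and the mitochondrial share were set beside the members over the mice. The 180 relations were adjusted together. Over the 24 mice, the summed olfactory bulb neuron markers (7.41 to 14.3 FPKM, with 4 of 5 markers above 0 in every mouse) followed 7 of the 10 members at an adjusted permutation p under 0.05, for example Arc with r = 0.64 (rho = 0.66, permutation p = 0.00067, adjusted p = 0.0134). Without the 2 mice farthest from the median of the markers, r was 0.50. Most of this sum was Th, with a mean of 6.62 FPKM over the mice. The other olfactory bulb markers had means from 0.107 (Tbx21) to 1.58 FPKM (Doc2g). Relations of the single markers were not tested. Within the 18 libraries of low total FPKM the r for Arc was 0.60 (adjusted permutation p = 0.195), and 0 of 180 relations passed there. The other 12 relations that passed over 24 mice were 9 of Ier2 and 3 of Fosb. Both were higher in the libraries of high total FPKM, but Junb, which was also higher there, had 0 such relations. The 9 of Ier2 include that with the mitochondrial share given above. Ier2 was lower with higher thalamus neuron markers (r = -0.76, rho = -0.67, adjusted permutation p = 0.0018, r = -0.64 without the 2 farthest mice) and higher with endothelial (r = 0.76, rho = 0.70, adjusted permutation p = 0.0027, 0.65 without 2) and meningeal fibroblast markers (r = 0.72, rho = 0.65, adjusted permutation p = 0.0036, 0.65 without 2). Fosb followed thalamus (r = -0.66, rho = -0.52, adjusted permutation p = 0.0134, -0.41 without 2), striatum (r = 0.61, rho = 0.49, adjusted permutation p = 0.0197, 0.52 without 2) and meningeal fibroblast markers (r = 0.58, rho = 0.54, adjusted permutation p = 0.0337, 0.54 without 2). The part of these markers in the levels of the members was not tested. Summed neuron markers followed none of the members over 24 mice, with r from -0.20 to 0.47. Within the 18 libraries of low total FPKM their r was negative for every member, from -0.56 (Egr2) to -0.07 (Fosb). None of these passed after adjustment.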

How the data were processed

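RNA-seq of mouse brain hemispheres (24 mice, 4 groups of 6) was deposited by the authors as 1 table of FPKM values, after poly-A library preparation by Novogene. The submitters' processing notes name DESeq 1.10.1 and the builds GRCm38 and mm10, whereas the aligner, the counting program, the annotation release and the use of strand are not given in the sources used here. Columns were mapped to mice by the sample labels, and 0 columns were left unmapped. The product of FPKM and gene length was a whole multiple of 1 fragment, within 0.05, for 100% of values, which gave the recovered fragments. The labels number the samples within a group without saying how they were bred or processed, so p-values measure the spread between these samples, which may be partly technical.

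Genes above 0 in at least 6 mice (27286) were tested with limma 3.58.1 in R 4.3.3 on log2(FPKM + 0.1), with all 4 groups in 1 fit, eBayes with a trend, and Benjamini-Hochberg adjustment over all genes tested. Fold changes are on the log2(FPKM + 0.1) scale, which understates change in genes of low level. The fit replaces the count test of the study because FPKM values were deposited, and limma voom on the recovered fragments was an alternative. It was tested on simulated data. Single comparisons used two-sided exact permutation tests (scipy 1.17.1), and correlations used 100000 permutations, or all orders for 6 mice. Mice of 1 group differed by more than sampling noise in all 60 pairs, so none was counted as a copy.

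The members, the lists of related genes and markers and the tests were chosen with earlier results of these data known. Named genes were the 10 members, the genes of each related list with an unadjusted p under 0.05 (at most 5 a list and comparison), and the 10 genes of at least 1 FPKM most alike to the members. Alternatives were pseudocounts of 1 and 0.01, no filter, a mean of at least 1 FPKM, median-ratio scaling, voom, only the groups compared, a replicate block, the library sets, and each mouse left out. Sequences are from RefSeq. Correlations within single groups were added after seeing the data.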

Additional observations from a re-analysis of the deposited data

Results flagged for a closer look

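Of the 40 combinations of a member and a group of 6 mice, 1 held a mouse that stood apart from the others of its group. Fos in vehicle + AEC replicate 2 was 11.98 FPKM, and the next highest mouse of the group was at 9.90 FPKM. The gap was 0.631 of the range of the group, above the 95% critical value of Dixon's test for 6 values. About 2 such cases in 40 are produced by chance. No cause was tested. The value lies within the range of Fos in the vehicle group, 4.09 to 14.5 FPKM.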

How the results depend on the processing

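The count of members at an unadjusted p under 0.05 was 0 of 10 in each of the 5 contrasts, and it stayed at 0 with every alternative but 1. With each mouse left out in turn it was 0 to 2 for angiotensin II + AEC against angiotensin II, where 606 to 882 of all genes passed. It was 2 (Arc and Egr2) only without angiotensin II + AEC replicate 4, and 0 in the other contrasts. The lowest unadjusted p of a member under any alternative was 0.0326 in that comparison, 0.0552 for vehicle + AEC against vehicle, 0.141 for angiotensin II against vehicle, 0.173 for the interaction and 0.212 for angiotensin II + AEC against vehicle + AEC. Of 1210 log2 differences recomputed, 113 changed sign, none of them with an unadjusted p under 0.05. Within the 18 libraries of low total FPKM the 10 members turned from all negative to all positive for angiotensin II against vehicle (median -0.13 and 0.25), and for the interaction from 7 positive to none (median 0.04 and -0.37). The number of pairs of members with an adjusted permutation p under 0.05 was 44 over 24 mice and 18 of 45 in the 6 libraries of high total FPKM, where only 6 mice entered. It was 43 to 44 under the other alternatives.

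The counts over all genes moved more. At an unadjusted p under 0.05 they were 604 for angiotensin II against vehicle, 694 for angiotensin II + AEC against angiotensin II, 658 for vehicle + AEC against vehicle, 725 for angiotensin II + AEC against vehicle + AEC and 692 for the interaction. With only genes of at least 1 FPKM, where fewer genes were tested, they were 93, 119, 105, 136 and 118. Within the 18 libraries of low total FPKM they were 1009, 1192, 1096, 1110 and 1094. With the library set as a term they were 944, 1063 and 1093 for the first, the second and the fourth. Without vehicle + AEC replicate 6 the last 3 were 1179, 1241 and 1241.

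Whether replicate numbers pair the mice was checked by the correlation of their deviations from the group means. It was -0.22 to 0.80 and over 0.1 in 28 of 36 pairs of the same number, and 10 of 36 mice correlated best with their own number. In each of the 4 comparisons made, at least 1 pair was below 0.1 (lowest -0.22, -0.22, -0.01 and -0.01), so the numbers were not taken to pair the mice there. All 6 pairs of vehicle and angiotensin II + AEC mice, which were not compared, were over it (0.44 to 0.79). With the number as a replicate block, 0 of 10 members passed in each contrast, and the counts over all genes became 950 for angiotensin II against vehicle, 993 for angiotensin II + AEC against angiotensin II, 1036 for vehicle + AEC against vehicle, 1096 for angiotensin II + AEC against vehicle + AEC and 1416 for the interaction. Depth limits Egr2 most, which had 33 fragments in 1 mouse.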
